A study of Homo sapiens with 6 samples.

Results

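AP-1 is the name for dimers that FOS and JUN proteins form on DNA, and 10 genes that encode such proteins or their close partners are described here in a human lung cancer line. They are FOS, FOSB, FOSL1, FOSL2, JUN, JUNB, JUND, ATF3, BATF and JDP2, and each was taken from the deposited gene table by its symbol. The table lists 57445 genes, and the 10 are among the 17129 that had enough counts to be tested. BATF is among those only because of its counts in the parental line.

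The study measured mRNA by RNA sequencing in 6 libraries of H358, an established epithelial line of non-small cell lung cancer grown in RPMI medium with serum. WT is the parental line with wild-type BRMS1 (2 libraries, replicates 1 and 2). C1 and C2 are called isogenic clones, each with 2 libraries and each labelled BRMS1v2 with the change A273V on both alleles. BRMS1 is a metastasis suppressor that works in a histone deacetylase co-repressor complex, and the series title names c-fos, the product of FOS, as a target. Each mutant group is 1 clone, with no label on how it was derived or on whether replicates are separate cultures, so p-values measure only the spread between these libraries. Gene counts do not show the variant itself: BRMS1 was read in every library, at 42.9 and 34.7 CPM (counts scaled to a common library size) in WT, 26.9 and 30 in C1, then 28.6 and 25.2 in C2.

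All 10 proteins share a basic region that grips DNA and a leucine zipper that joins them in pairs. JUN proteins pair with each other or with FOS proteins, while FOS proteins need a partner. The dimers bind a short palindrome, the TPA response element, and with other partners the related cAMP response element. FOS, FOSB, JUN, JUNB and ATF3 are classical immediate early genes: serum, growth factors or stress switch them on within minutes through MAP kinases, and their mRNAs decay fast. FOSL1 and FOSL2 come later and last longer, and FOSL1 is known to be sustained by RAS and ERK signalling in carcinoma cells.

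Response elements near the transcription start are part of how these genes are switched on, so 1 site per gene is shown for the 8 members whose promoter window held a searched core. The windows are RefSeq's on GRCh38.p14, from 250 bases before to 50 bases after each start, and 9 of the 10 members matched, with 12 windows. Each line gives 30 bases of the gene's own strand, 5′ to 3′. The capitals mark TGACG (the first letters of the cAMP response element), its full palindrome TGACGTCA, or the variant TGACATCA.
FOS: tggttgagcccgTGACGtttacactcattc
FOSB: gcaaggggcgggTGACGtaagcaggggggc
FOSL2: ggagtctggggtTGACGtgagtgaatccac
JUN: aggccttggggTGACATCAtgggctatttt
JUNB: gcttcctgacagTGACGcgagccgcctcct
JUND: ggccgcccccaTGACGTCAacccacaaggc
ATF3: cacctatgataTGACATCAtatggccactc
JDP2: tccgtccccctcTGACGtctggagctggca

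These sites lie at chr14:75278752-75278781 (FOS), chr19:45467924-45467953 (FOSB), chr2:28392780-28392809 (FOSL2), chr1:58784096-58784125 (JUN), chr19:12791337-12791366 (JUNB), chr19:18281804-18281833 (JUND), chr1:212565273-212565302 (ATF3) and chr14:75427913-75427942 (JDP2). JUN and JUND are on the minus strand and the others on the plus strand. Counted from the start, the first capital was at -64 in FOS, -60 in FOSB, -66 in FOSL2, -67 in JUN, -137 in JUNB, -200 in JUND, -123 in ATF3 and -97 in JDP2. On either strand, TGACG was in 7 of the 12 member windows and in 24.6% of all 35116 windows, TGACATCA in 2 and in 2.61%, and TGACGTCA in 1 and in 1.85%. Each TGACGTCA also holds TGACG on both strands. The TPA response element was searched as TGANTCA, with any base in the middle, which is wider than the element itself. This pattern was in 1 member window, that of FOSL2, and in 7.71% of all windows. There it starts 5 bases into the transcript, at chr2:28392851-28392880, with the element in capitals.
FOSL2, second site: tgccattgtagTGACTCAtctcgggcagag

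The serum response element was in none of the 12 member windows and in 1.29% of all windows, and BATF's window held none of the 5 motifs. Elements more than 250 bases before a start lay outside the search, and FOSL1 had no window. The letters searched thus do not show that a member lacks a serum response element. A match is a description of letters and not a measured binding site. FOS and JDP2, whose sites are printed above, are neighbours: FOS, JDP2 and BATF follow each other without another protein-coding gene between them on chromosome 14.

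The libraries held 27527867 to 37146270 gene counts each, which was 77.6% to 78.7% of the reads listed. Replicate 2 differed from replicate 1 in every group: of 15 proliferation genes, all 15 had a lower value in replicate 2. Their median log2 difference was -2.05, against 0 over all tested genes. edgeR called 5 of them, PCNA (-1.69) among these, beside 12.2% of all tested genes called lower. DESeq2 called 15, beside 3798 of all genes called in either direction. MKI67 (-2.59, adjusted p = 0.14) and TOP2A (-1.78, adjusted p = 0.17) did not pass in edgeR. The summed level of the 15 was 2780 and 1100 CPM in WT, 2800 and 366 in C1, then 3200 and 1000 in C2. Lung epithelial markers summed to 5210 to 5730 CPM in WT and 6200 to 7440 in the clones, while the alveolar and club cell genes SFTPB, SFTPC and SCGB1A1 had 2 counts or fewer in every library. Immune markers summed to 2.21 to 4.71 CPM, mesenchymal ones to 83.3 to 93.9 and erythroid ones to 0.0309 at most. Of 4 endothelial markers 3 were in the gene table, and they summed to 9.53 to 21.2 CPM in WT and 16.2 to 42.2 in the clones. Most of that was KDR, at 7.45 and 18.6 CPM in WT and 13.5 to 38.3 in the clones. CDH5 was higher in the clones (1.49 to 2.44 against 0.337 to 1.06), while VWF was not (0.65 to 1.37 against 1.02 to 2.19). In bulk RNA, fewer cells with a transcript and less transcript per cell cannot be told apart.

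FOSL1, JUNB and JUND were the main AP-1 transcripts of these cells. Scaled by exon length, their mean levels over the 6 libraries were 58.8, 42.6 and 30.4 CPM per kb. FOSL2 followed at 12.9 CPM per kb and JUN at 8.05. FOS stood at 3.77, ATF3 at 3.54 and JDP2 at 3.05, and FOSB (0.475) and BATF (0.466) were near the bottom of the order. Between neighbours in this order, the ranges over libraries were separate only for JUND above FOSL2 and for JUN above FOS. FOSL1 exceeded JUNB in 3 of 6 libraries, those of replicate 1, and JUNB exceeded FOSL1 in the other 3. With the longest transcript in place of the union of exons, ATF3 (6.8) stood above FOS (5.66), so the order of those 2 depends on the length used.

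**Figure D1:**
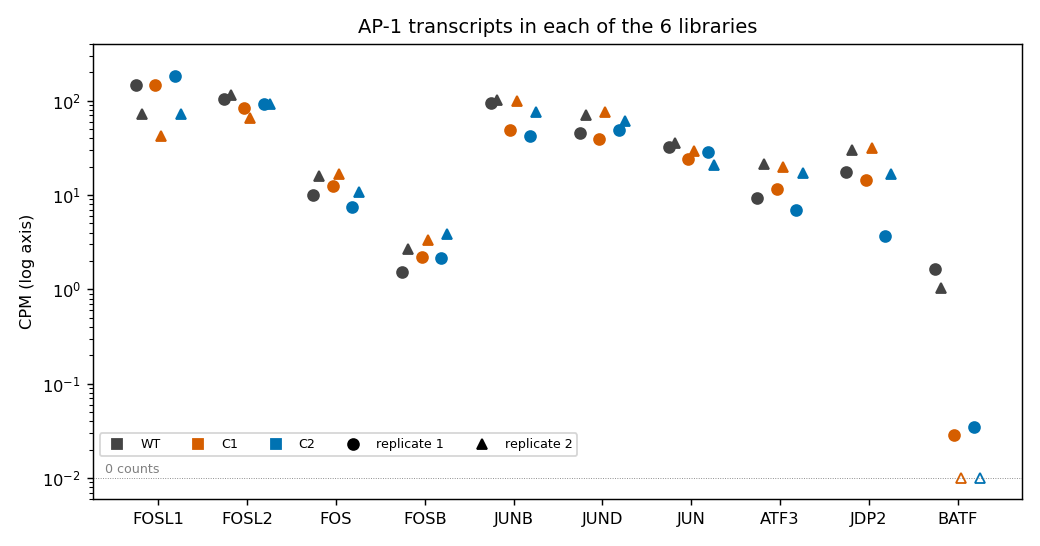
Levels of the 10 AP-1 transcripts in CPM on a log axis, with 1 point per library (grey WT, orange C1, blue C2, circles replicate 1, triangles replicate 2). FOSL1 is higher in the replicate 1 libraries, 148 to 182 CPM against 42.2 to 73.1, while BATF is at 1 count or 0 in the clones and open triangles mark 0 counts.

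The make-up of the family followed the replicate number. FOSL1 made up 41.6% of the summed length-scaled level in WT replicate 1 and 22% in replicate 2. The same shares were 50.6% and 14.8% in C1, then 56% and 27.1% in C2. JUN, JUNB and JUND together went the other way, with 45.2% and 59.4% in WT, 35.7% and 68.7% in C1, then 33.6% and 56.3% in C2. The summed level of all 10 ranged from 143 to 188 CPM per kb, with 188 and 176 in WT, 155 and 151 in C1, then 172 and 143 in C2. All 4 clone sums thus lay below both WT sums, though narrowly, at 172 in C2 replicate 1 against 176 in WT replicate 2. Among single tested genes, 11.9% were lower in all 4 clone libraries than in WT.

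**Figure D2:**
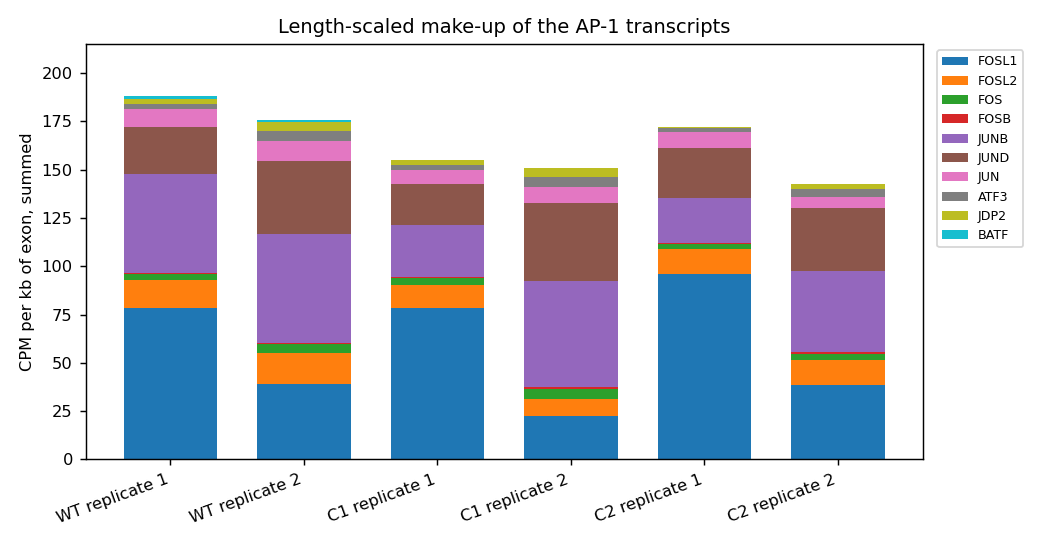
Stacked levels of the 10 transcripts in CPM per kb of exon for each of the 6 libraries. FOSL1 is the largest block in the 3 replicate 1 libraries (41.6% to 56% of the total) and smaller in the replicate 2 libraries (14.8% to 27.1%).

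FOS, the gene of c-fos, was a low transcript in all 6 libraries and passed no test between groups. It read 9.91 and 15.8 CPM in WT, 12.4 and 16.8 in C1, then 7.55 and 10.7 in C2 (means of 12.8 ± 4.15, 14.6 ± 3.11 and 9.14 ± 2.26 CPM, SD, n = 2 each). Both clones overlapped WT, and C2 lay wholly below C1. Against WT, edgeR's quasi-likelihood test gave a log2 difference of 0.19 in C1 (SE 0.35, 95% interval -0.65 to 1.03, adjusted p = 0.97) and -0.49 in C2 (SE 0.35, interval -1.33 to 0.35, adjusted p = 0.91). Adding the replicate number to the model as a block narrowed the interval for C2 to -0.94 to -0.02, with an adjusted p of 0.24. Libraries of the same number deviated together across genes, although no label says what the number marks. Within replicate numbers, C1 was above WT by 0.33 and 0.09 on the log2 scale and C2 was below it by -0.39 and -0.55.

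C2 against C1 asks whether the clones differ from each other, and FOS was one of the members with the larger values there. The blocked log2 difference was -0.69 (SE 0.21, 95% interval -1.14 to -0.23), with an adjusted p of 0.93 by edgeR over all 17129 genes. C2 was lower than C1 in both replicate numbers, by -0.72 and -0.65. FOS was the only member with every C2 library below every C1 library, a pattern seen in 7.41% of tested genes. So the level of FOS was not shown to differ between the clones.

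FOSB, a close relative of FOS, was the only member with higher means in both clones than in WT. It read 1.53 and 2.69 CPM in WT, 2.23 and 3.37 in C1, then 2.14 and 3.87 in C2, on 48 to 125 counts. The groups overlapped, and the log2 differences of 0.41 in C1 and 0.51 in C2 had adjusted p-values of 0.94 and 0.95 by edgeR. With the block the intervals ran from -0.2 to 1.06 in C1 and from -0.13 to 1.14 in C2.

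FOSL1, which encodes FRA1, read 148 and 73.1 CPM in WT, 148 and 42.2 in C1, then 182 and 72.9 in C2. The spread inside each group exceeded the distance between groups (means of 110 ± 52.8, 94.9 ± 74.6 and 127 ± 76.8 CPM, SD, n = 2 each). The unblocked intervals around the log2 differences were wide, -1.98 to 1.54 in C1 and -1.55 to 1.96 in C2. With the block the values were -0.39 in C1 (interval -0.79 to 0.01, adjusted p = 0.25 by edgeR) and 0.14 in C2 (interval -0.26 to 0.53, adjusted p = 0.75). C2 against C1 gave 0.53 with the block (interval 0.13 to 0.92), with an adjusted p of 1 by edgeR. FOSL1 and BRMS1 are both on chromosome 11, with 18 protein-coding genes between them.

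FOSL2, which encodes FRA2, was lower in every clone library than in both WT libraries. It read 105 and 116 CPM in WT, 84.4 and 65.9 in C1, then 92.1 and 92.1 in C2. C1 lay below C2, and both lay below WT. The log2 difference in C1 was -0.56 (SE 0.19, 95% interval -1.02 to -0.09, adjusted p = 0.56 by edgeR), and the block gave the same difference with an adjusted p of 0.054. DESeq2 with the block called it, at an adjusted p of 0.049. In C2 the difference was -0.26, with an adjusted p of 0.92 by edgeR and 0.42 with the block.

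JUN, the founding partner of FOS, read 32.7 and 35.4 CPM in WT, 24.1 and 29 in C1, then 28.9 and 20.8 in C2. All 4 clone libraries lay below both WT libraries. The log2 differences were -0.36 in C1 (interval -0.93 to 0.22) and -0.45 in C2 (interval -1.03 to 0.12), each with an SE of 0.24 and with adjusted p-values of 0.82 and 0.84 by edgeR. With the block the interval for C2 was -0.89 to -0.03, at an adjusted p of 0.23. JUN and FOSL2, along with BATF, are the 3 members whose clone libraries all lay below WT, a pattern found in 11.9% of tested genes.

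JUNB, which can oppose JUN at some promoters, was the JUN-type member with the largest difference in C2. It read 93.9 and 103 CPM in WT, 49.5 and 100 in C1, then 42.6 and 76.2 in C2. C2 lay below WT, while C1 overlapped WT through its replicate 2. For C2 the log2 difference was -0.73 without the block (SE 0.41, 95% interval -1.71 to 0.25, adjusted p = 0.85 by edgeR) and -0.81 with it (SE 0.2, interval -1.26 to -0.36, adjusted p = 0.049). Within replicate numbers C2 was below WT by -1.14 and -0.44, and C1 by -0.92 and -0.04. The blocked call for C2 was lost without WT replicate 1 (-0.39, adjusted p = 0.27 by edgeR) and without either C2 library (-0.67 and -0.96, adjusted p of 0.51 and 0.52). Reads of JUNB are uncertain in part: its exons overlap those of HOOK2 on the other strand, and no strand setting is given for the counting.

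JUND, which is held at steady levels in many cells, did not separate the groups. It read 45.1 and 70.4 CPM in WT, 39.5 and 75.2 in C1, then 48.8 and 60.9 in C2. All 3 groups overlapped, and the blocked log2 difference from WT was -0.04 in both clones, with intervals of -0.41 to 0.33 (C1) and -0.42 to 0.33 (C2), and edgeR gave adjusted p-values of 0.92 and 0.93.

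ATF3, a stress-induced partner of JUN that often represses, read 9.4 and 21.1 CPM in WT, 11.6 and 19.7 in C1, then 6.98 and 17 in C2. The groups overlapped. The blocked log2 differences were 0.1 in C1 (interval -0.36 to 0.56) and -0.36 in C2 (interval -0.83 to 0.1), and edgeR gave adjusted p-values of 0.84 and 0.4.

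JDP2, a JUN dimerization partner that represses AP-1 sites, was lowest in C2. It read 17.5 and 30.2 CPM in WT, 14.4 and 31.5 in C1, then 3.68 and 16.7 in C2, so both C2 libraries lay below both WT libraries and C1 spanned the WT range. C2 replicate 1 stood lowest, on 105 counts. In C2 the log2 difference was -1.22 (SE 0.75, 95% interval -3.03 to 0.6, adjusted p = 0.88 by edgeR) without the block and -1.47 (SE 0.31, interval -2.16 to -0.78, adjusted p = 0.03) with it. The blocked call was lost without C2 replicate 1 (-0.93, adjusted p = 0.32 by edgeR) and without C2 replicate 2 (-2.18, adjusted p = 0.13).

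JDP2 also had the largest difference between the clones among the 10 members. C2 was below C1 by -1.95 in replicate 1 and -0.91 in replicate 2. The blocked fit gave -1.35 (SE 0.3, interval -2.03 to -0.66), with an adjusted p of 0.74 by edgeR, and DESeq2 with the block called it (adjusted p = 0.0072). Exons of JDP2 overlap the antisense gene AF111167.2, so its reads cannot be assigned by strand here.

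BATF, a partner of JUN best known from lymphocytes, was detected in WT and nearly absent from both clones. Reads on BATF numbered 51 and 31 in WT, 1 and 0 in C1, then 1 and 0 in C2. In CPM these were 1.63 and 1.04, then 0.0283 and 0, and 0.0351 and 0. WT exceeded C1 by a ratio of 87.8 (95% counting interval 15.3 to 3510) and C2 by a ratio of 81.8 (14.3 to 3270), intervals that cover counting error only. edgeR gave an adjusted p of 0.15 in C1 and 0.21 in C2 without the block, and 0.00042 and 0.00068 with it. DESeq2 without the block called both, at adjusted p-values of 0.011 and 0.016, and so did edgeR without a filter on low counts, at 2.1e-05 and 4.6e-05. The blocked call in C2 was lost without either C2 library (log2 differences of -8 and -5.45). With single libraries left out, the blocked difference in C1 ran from -8.16 to -5.65. In the filtered fits BATF was tested only through its WT counts, so it could hardly come out other than lower there. The refits reuse the same libraries and are no separate support.

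Immune markers were at 3.49 to 4.71 CPM in WT and 2.21 to 4.54 in the clones, where BATF was at 1.04 to 1.63 and at 0.0351 or less. Their part in the BATF difference was not tested. Of the 10 protein-coding genes around FOS, JDP2 and BATF, 5 on each side, TGFB3 was called in C1 with the block (log2 difference 0.9, adjusted p = 0.049 by edgeR). FLVCR2, the next gene beyond BATF, read 3.93 and 4.31 CPM in WT, 5.37 and 6.71 in C1, then 5.97 and 5.63 in C2. TMED10, the gene before FOS, read 376 to 470 CPM over the 6 libraries.

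Counted over the family, the unblocked edgeR test called 0 of 10 members in C1 and 0 in C2, beside 0.0117% of all tested genes in each comparison. At an unadjusted p under 0.05 there were 2 members in C1 and 1 in C2, beside 1348 and 1156 of the 17129 genes. DESeq2 called 1 in each, BATF. With the block, edgeR called 1 member in C1 (BATF, lower), beside 7.03% of all genes, 2.96% higher and 4.07% lower. In C2 it called 3 (BATF, JDP2 and JUNB), all lower, beside 4.54% of all genes, 1.94% higher and 2.59% lower. DESeq2 with the block called 2 members in C1, BATF and FOSL2, beside 1152 of all genes. In C2 it called 3, BATF, JDP2 and JUNB, beside 827 of all genes. BATF passed the low-count filter only through its WT counts, so it could hardly come out other than lower. That limits every count of lower members that includes it.

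The mean of both clones against WT gave 0 members by edgeR without the block, beside 0.198% of genes. At an unadjusted p under 0.05 edgeR had 2 members and 1677 of all genes. BATF came nearest to a call, at an adjusted p of 0.051 by edgeR. DESeq2 without the block called 1 member, beside 393 of all genes. With the block, edgeR called BATF and JUNB (JUNB log2 difference -0.65, SE 0.17, adjusted p = 0.037), beside 9.74% of genes, 4.12% higher and 5.63% lower. The JUNB call was lost without WT replicate 1 (adjusted p = 0.5 by edgeR) and without either C2 library (0.28 and 0.2). JUN stood at -0.41 with an adjusted p of 0.16, and FOSL2 at -0.41 with 0.077.

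C2 against C1 gave 0 members with or without the block by edgeR, where 0% of genes were called. At an unadjusted p under 0.05 there were 0 members without the block, beside 61 of the 17129 genes, and 4 with it (FOS, FOSL1, JDP2 and ATF3), beside 642. DESeq2 called 0 members without the block and 1 with it, JDP2, beside 0 and 19 of all genes. Members higher in C2 than in C1 in every library were FOSL2 alone, beside 7.21% of genes.

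By libraries that did not overlap, 3 members were lower in C1 than in WT (FOSL2, JUN and BATF), where 17.6% of tested genes showed this. In C2, 5 were lower (FOSL2, JUN, JUNB, JDP2 and BATF), beside 17.3% of genes. Both counts include BATF, which was tested only through its WT counts. None was higher in either clone, beside 17.5% of genes in each. The median log2 difference of the 10 was -0.14 in C1 and -0.4 in C2 without the block, against -0.01 and 0.01 over all tested genes. The 2 comparisons share the WT libraries and are not independent of each other.

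**Figure D3:**
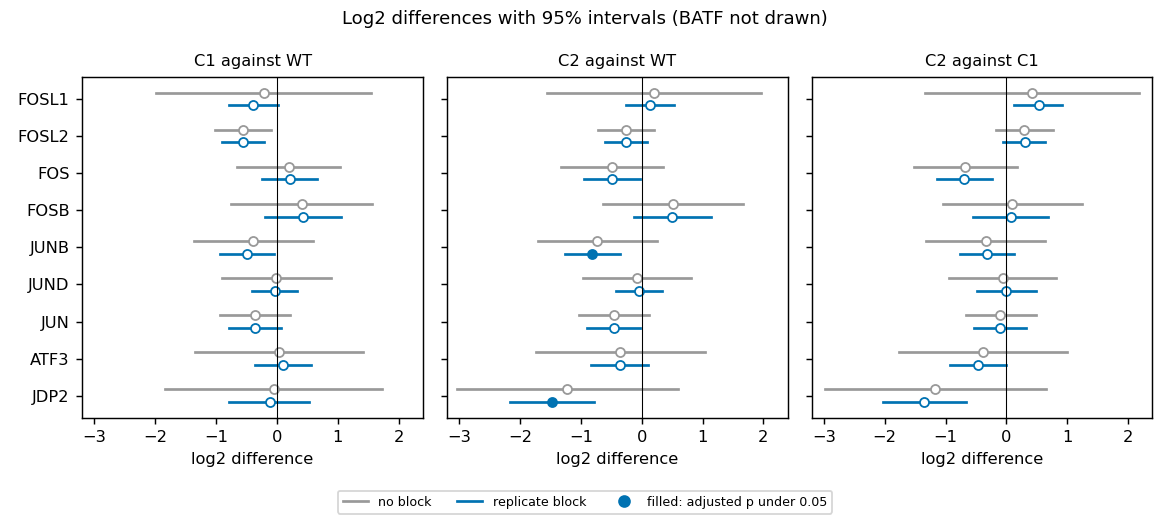
Log2 differences of 9 members in 3 comparisons with 95% intervals, from the edgeR fits without (grey) and with (blue) the replicate number as a block. Filled points passed an adjusted p of 0.05, which JUNB (-0.81) and JDP2 (-1.47) did in C2 against WT with the block.

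More members changed with the replicate number than between groups. In the blocked fit, edgeR called 7 of 10 members between replicate 2 and replicate 1, beside 24.7% of all genes. FOSL1 fell (log2 difference -1.38, SE 0.15, adjusted p = 7.7e-05), beside 12.2% of genes called lower. In all 3 groups it was lower in replicate 2, by -1.01 in WT, -1.81 in C1 and -1.32 in C2. The 6 that rose, beside 12.5% of genes called higher, were JDP2 (1.33, adjusted p = 0.0048), ATF3 (1.07, adjusted p = 0.00091), FOSB (0.75, adjusted p = 0.036), JUNB (0.67, adjusted p = 0.014), JUND (0.63, adjusted p = 0.0064) and FOS (0.54, adjusted p = 0.037).

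Each of those 6 was higher in replicate 2 in all 3 groups, a pattern of 28.1% of tested genes. For FOS the steps were 0.67 in WT, 0.44 in C1 and 0.51 in C2, and for JUNB they were 0.13, 1.02 and 0.84. FOSL2 (-0.07, adjusted p = 0.72) and JUN (-0.03, adjusted p = 0.92) had no common direction. BATF was lower in replicate 2 (-0.79, adjusted p = 0.32), on single counts in the clones, and a fall in all 3 groups, as in BATF and FOSL1, was seen in 28.3% of tested genes. The call of FOSL1 was kept without any 1 library and that of FOS was lost without any 1 (0.47 to 0.6). FOSB was called only without C1 replicate 1, JUNB, ATF3 and JDP2 were lost without either C2 library, and JUND was lost without either of those or C1 replicate 2. The summed proliferation genes given above moved with the number too, and their part in the differences was not tested.

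**Figure D4:**
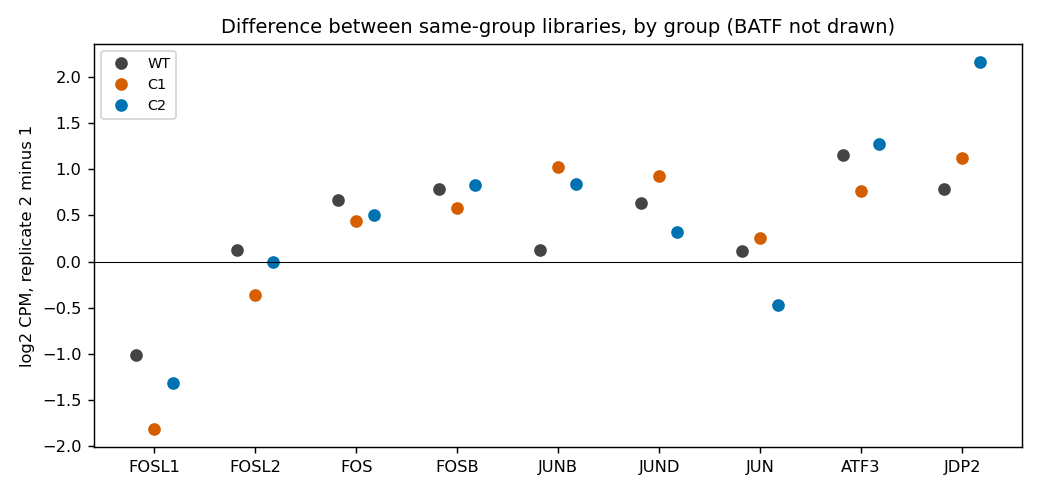
Difference in log2 CPM between replicate 2 and replicate 1 for 9 members, with 1 point per group. FOSL1 lies between -1.81 and -1.01 in the 3 groups, and FOS lies between 0.44 and 0.67.

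The genes whose profile over the 6 libraries was most like that of FOS were ranked by the root mean square difference of log2 CPM, each gene centred on its own mean, among 11583 genes. They were C9orf91 (0.102), IARS (0.115), PROSER2 (0.118), GPT2 (0.13) and METTL20 (0.131), where the median gene was at 0.45. For JUN they were RASSF1 (0.056), SELRC1 (0.0667), TMEM199 (0.0732), PPRC1 (0.0764) and THAP1 (0.0769), with a median of 0.36. These distances over 6 libraries are a description and carry no test.

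Other bZIP genes supply further partners for FOS and JUN proteins. Of 20 tested, edgeR called 0 in either clone without the block, beside 0.0117% of all genes, and DESeq2 also called 0. At an unadjusted p under 0.05 by edgeR there were 2 in C1 and 1 in C2, beside 1348 and 1156 of the 17129 genes. With the block edgeR called 1 in each clone, beside 7.03% of all genes in C1 and 4.54% in C2. This was MAF, which was lower and which, like BATF, passed the low-count filter through its WT counts. MAF, a large MAF-family factor that can pair with FOS and JUN, had 82 and 140 counts in WT, 0 and 9 in C1, then 0 and 0 in C2. WT exceeded C1 by a ratio of 26.4 (95% counting interval 13.7 to 58.5). For WT over C2, which had no counts, the lower limit of that interval was 59.5. Setting C2 to a floor of 3 counts over the group gave a ratio of 73.8. The adjusted p-values with the block were 0.0051 and 0.0032 by edgeR. DESeq2 with the block called none of the 20, beside 1152 of all genes in C1 and 827 in C2. Over the whole list, 10 of 20 were lower in C1 and 13 in C2 without the block, whether called or not.

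Between replicate numbers, edgeR called 6 of those 20, 5 higher and 1 lower in replicate 2, beside 24.7% of all genes. ATF5, a stress-response factor, was the lower one (-1.04, adjusted p = 0.0013). CEBPG (0.94, adjusted p = 0.0086), CEBPB (0.83, adjusted p = 0.00094) and BACH1 (0.82, adjusted p = 0.0014) were among the higher ones.

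A further list holds kinases and promoter factors that switch AP-1 genes on, such as the ERK, JNK and p38 kinases, SRF, the ELK factors and CREB1. Of 26 tested, edgeR called 0 in C1 and 0 in C2, with or without the block, and DESeq2 also called 0. DESeq2 with the block called 1152 of all genes in C1 and 827 in C2. Over all genes edgeR called 0.0117% in each clone without the block, then 7.03% in C1 and 4.54% in C2 with it. At an unadjusted p under 0.05 there were 2 and 1 without the block, beside 1348 and 1156 of the 17129 genes. For the mean of both clones, the blocked fit called 2 of 26, both higher, beside 9.74% of all genes, and the fit without the block called 0. MAPK14, the p38 alpha kinase, read 88.8 and 80.3 CPM in WT and 117 to 125 in the 4 clone libraries (log2 difference 0.5, SE 0.13, adjusted p = 0.027 by edgeR, and 0.35 without the block). ELK3, an ETS factor that binds beside SRF, read 96 and 118 CPM in WT and 138 to 151 in the clones (0.43, SE 0.13, adjusted p = 0.05 to 2 digits by edgeR, and 0.47 without the block). Both genes were higher than WT in all 4 clone libraries, a pattern of 11.9% of tested genes.

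In a list of genes tied to the turnover and inhibition of AP-1, 2 rose in each clone with the block. The list holds mRNA-binding factors, ubiquitin ligases, MAP kinase phosphatases and other regulators such as ELAVL1, SIRT1 and PDCD4. Of its 18 tested genes edgeR called 2 higher in C1 and 2 in C2, and 0 lower. Over all tested genes, 2.96% were called higher in C1 and 1.94% in C2. ITCH, a ubiquitin ligase that targets JUN proteins, read 392 and 328 CPM in WT, 748 and 423 in C1, then 638 and 529 in C2 (log2 differences 0.66 and 0.7, adjusted p = 0.029 and 0.03). DUSP6, an ERK phosphatase, rose in C1 (0.8, adjusted p = 0.048) and stood at 0.6 in C2 (adjusted p = 0.14). DUSP4, a nuclear phosphatase of ERK and JNK, rose in C2 (0.66, adjusted p = 0.036) and stood at 0.51 in C1 (adjusted p = 0.077). Without the block edgeR and DESeq2 called 0 in either clone. At an unadjusted p under 0.05 edgeR had 0 in C1 and 1 in C2, beside 1348 and 1156 of the 17129 genes. With the block, the median log2 difference of the 18 was 0.28 in C1 and 0.22 in C2, against -0.01 and 0 over all tested genes.

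The same list changed in both directions with the replicate number, with 3 higher and 4 lower in replicate 2, where 12.5% of all genes were called higher and 12.2% lower. HNRNPD, which binds AU-rich elements in short-lived mRNAs, fell (-1.12, adjusted p = 2.9e-05 by edgeR). DUSP6 also fell (-0.62, adjusted p = 0.025), while TSC22D3 (0.81, adjusted p = 0.038) and DUSP1 (0.72, adjusted p = 0.046) rose.

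Textbook AP-1 target genes changed in both directions in the clones. Of the 40 listed, 33 were tested, and MMP3, MMP10, IVL, SPRR1A, SPRR1B, SPRR3 and NTS had too few counts. With the block edgeR called 4 higher and 5 lower in C1, then 3 higher and 2 lower in C2, where 7.03% and 4.54% of all genes were called. DESeq2 with the block called 4 higher and 8 lower in C1, then 3 higher and 5 lower in C2. Over all 17129 genes it called 1152 in C1 and 827 in C2. Without the block edgeR called 0 in each, with 9 and 5 at an unadjusted p under 0.05, beside 1348 and 1156 of the 17129 genes. Without the block DESeq2 called 2 higher and 2 lower in C1 and 1 of each in C2, beside 270 and 209 of all genes. The median log2 difference with the block was -0.32 in C1 and -0.14 in C2.

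Among the lower targets, SPP1, the secreted matrix protein osteopontin, read 52 and 154 CPM in WT, 15 and 23.1 in C1, then 12.7 and 50.1 in C2. With the block its log2 difference was -2.23 in C1 (adjusted p = 0.0071 by edgeR) and -1.79 in C2 (adjusted p = 0.021). S100A2, an epithelial calcium-binding protein, read 216 and 213 CPM in WT, 84.7 and 43.3 in C1, then 84 and 80.1 in C2. All 4 clone libraries of S100A2 lay far below WT, where 11.9% of tested genes were lower in all 4. Its blocked differences were -1.8 (adjusted p = 0.0024 by edgeR) and -1.39 (adjusted p = 0.01).

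Among the higher targets, CLU, the chaperone clusterin, read 33.5 and 27.8 CPM in WT, 65 and 77.1 in C1, then 70.7 and 86.8 in C2. Every clone library of CLU was above WT, as in 11.9% of tested genes, with blocked differences of 1.21 (adjusted p = 0.0013 by edgeR) and 1.35 (adjusted p = 0.00073). PLAU, which encodes urokinase, read 795 and 1000 CPM in WT, 1750 and 1740 in C1, then 1310 and 1780 in C2. It rose with the block in C1 (0.97, adjusted p = 0.002 by edgeR) and in C2 (0.78, adjusted p = 0.01). Between replicate numbers 6 targets rose and 7 fell, beside 24.7% of all genes called, among them MMP7 (-2.58, adjusted p = 8.5e-06) and MMP1 (1.59, adjusted p = 0.00025), both matrix metalloproteinases.

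Immediate early genes outside AP-1 are driven by the same kinases. Of 25 listed, 23 were tested (EGR2 and EGR3 had too few counts), and with the block edgeR called 1 higher and 4 lower in C1 and 0 in C2, beside 7.03% and 4.54% of all genes. In C2 there were 7 at an unadjusted p under 0.05 with the block by edgeR, as were 3258 of the 17129 genes. DESeq2 with the block called 0 in C2, beside 827 of all genes. Without the block edgeR and DESeq2 called 0 in either clone. At an unadjusted p under 0.05 edgeR had 3 in C1 and 2 in C2, beside 1348 and 1156 of the 17129 genes. EGR1, a zinc finger factor usually induced along with FOS, read 39.9 and 7.94 CPM in WT, 20.8 and 3.24 in C1, then 18.4 and 6.07 in C2. It fell in C1 (-1.08, adjusted p = 0.024), as did NR4A1, an orphan nuclear receptor (-1.21, adjusted p = 0.018), and BTG2, an antiproliferative gene (-1.5, adjusted p = 0.02). In C2 these 3 stood at -0.75, -0.94 and -1.07, with adjusted p-values of 0.12, 0.071 and 0.096. CTGF, a secreted matrix factor, rose in C1 (0.92, adjusted p = 0.023) and stood at 0.56 in C2 (adjusted p = 0.18).

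EGR1 and FOS moved in opposite directions with the replicate number. EGR1 fell in replicate 2 (-2.19, SE 0.21, adjusted p = 3e-05 by edgeR), while FOS rose (0.54, SE 0.17, adjusted p = 0.037). KLF2 (-1.36, adjusted p = 0.0053) and IER3 (-0.78, adjusted p = 0.00074) fell with EGR1, and KLF4 (0.63, adjusted p = 0.0074) rose. Of the 23, 4 rose and 5 fell, beside 12.5% and 12.2% of all genes.

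**Figure D5:**
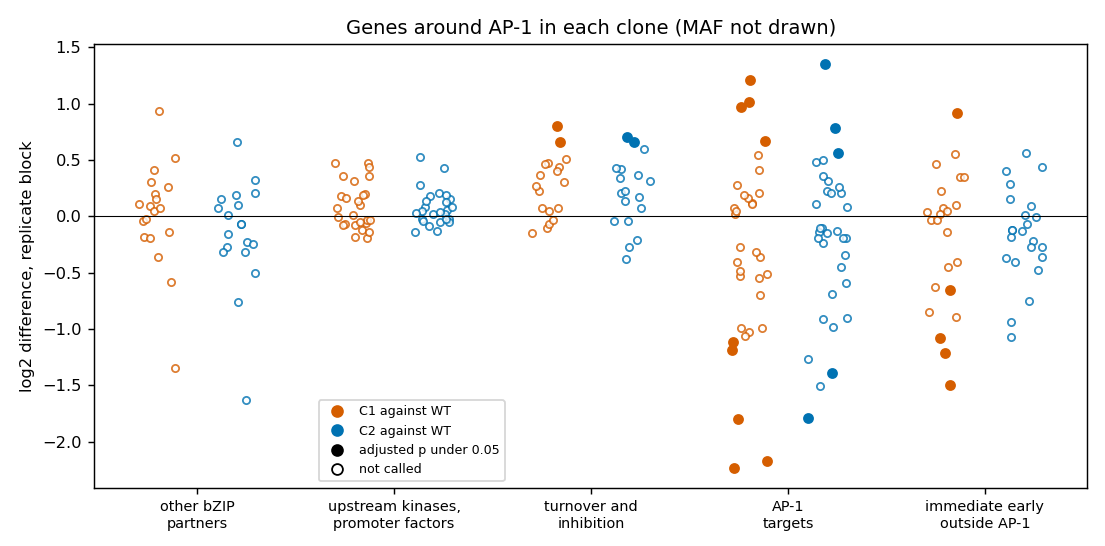
Log2 differences from WT, with the replicate number as a block, for the tested genes of 5 lists around AP-1 (MAF left out) in C1 (orange) and C2 (blue). Filled points passed an adjusted p of 0.05: in the target list these were 9 in C1 and 5 in C2, on both sides of 0.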

How the data were processed

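mRNA was measured in 6 H358 libraries, 2 each of WT, C1 and C2, grouped by the sample titles. Per the file headers, the deposited values are raw, whole-number counts for each gene and library, followed by 5 HTSeq totals that were left out of library sizes and tests. Upstream of that, the tools were cutadapt 1.6, STAR 2.5.0a and HTSeq 0.5.3 on hg19, per the submitters' processing notes. The annotation release and strand setting are not given in the sources used here. Reads outside genes and unassigned reads were the rest of the listed reads.

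The tests were run in R 4.3.3, using edgeR 4.0.16 (TMM scaling, filterByExpr, quasi-likelihood F test, all 6 libraries in 1 fit, Benjamini-Hochberg adjustment over 17129 genes, calls at an adjusted p below 0.05), limma 3.58.1 for support and DESeq2 1.42.0 as an alternative. CPM values use TMM-scaled library sizes, with a prior count of 2 where logarithms were taken. The fits were tested on simulated data that held no effect of the replicate number. That test therefore cannot decide between the blocked and unblocked fits here. Count ratios have exact 95% intervals.

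The replicate number was an alternative block. Deviations from group means of same-numbered libraries correlated by 0.584 (WT and C1), 0.634 (WT and C2) and 0.701 (C1 and C2), all above 0.1, and same-numbered libraries were therefore treated as pairs. No label states such a pairing, and in groups of 2 the deviations of one library mirror those of the other. Blocked fits have 2 residual degrees of freedom and rest on that pairing, and unblocked fits have 3. Replicates were not copies, with a chi-square per gene of 90.7 in WT, 119 in C1 and 105 in C2. Counting intervals cover counting error only.

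Exon lengths, overlaps and gene order came from GENCODE 29 by gene ID, on another build than hg19, and promoter windows from RefSeq on GRCh38.p14. Other settings tried were DESeq2 size factors, no filter on low counts, each library left out, and the longest transcript as length. Besides the 10 members and BRMS1, each list gives up to 4 called genes with the largest differences per comparison. A gene that this rule names among the targets is not reported here. The genes most like FOS and JUN are the nearest 5. ELK3, TGFB3, TMED10 and FLVCR2 were named after their values were seen or for their position. The members and lists were chosen with earlier results of these data known.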

Additional observations from a re-analysis of the deposited data

How the results depend on the processing

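With 2 libraries per group and 2 or 3 residual degrees of freedom, single calls depended on the model, and depth limited BATF and MAF, at 0 or 1 counts in most clone libraries. The genes of the other lists were not refitted without single libraries. edgeR with DESeq2 size factors left every count of calls within 1.5 times its value. Against 2 genes and 0 members called in C1, DESeq2 called 270 genes and 1 member, edgeR without a filter on low counts 296 and 1, edgeR with the replicate block 1204 and 1, and DESeq2 with the replicate block 1152 and 2. Against 2 genes and 0 members in C2, the same settings gave 209 and 1, 209 and 1, 777 and 3, and 827 and 3. For the mean of both clones, against 34 and 0, they gave 393 and 1, 436 and 1, 1669 and 2, and 1520 and 3. C2 against C1 stayed at 0 except with DESeq2 and the replicate block (19 genes and 1 member). Apart from BATF, JDP2 and JUNB, the replicate block changed no call among the members in edgeR. Leaving out each library in turn, with and without the block, the counts ran from 0 to 1776 genes and 0 to 3 members in C1, 0 to 1756 and 0 to 3 in C2, 0 to 343 and 0 to 2 between the clones, 0 to 2277 and 0 to 4 for the mean of both clones, and 617 to 4849 and 1 to 6 between replicate numbers. A group left with 1 library was assumed to vary like the others. Of the 50 differences of members, 23 changed sign without some library. In C1 those were FOS (-0.1 to 0.57), FOSL1 (-1.38 to 0.43), JUNB (-0.98 to 0.04), JUND (-0.54 to 0.39), ATF3 (-0.43 to 0.74) and JDP2 (-0.71 to 0.42). In C2 they were FOSB (-0.004 to 0.97), FOSL1 (-0.59 to 0.81), JUND (-0.35 to 0.29) and ATF3 (-1.15 to 0.36). Between the clones they were FOSB (-0.42 to 0.47), FOSL1 (-0.37 to 1.57), JUN (-0.44 to 0.2), JUNB (-0.85 to 0.26), JUND (-0.47 to 0.47), ATF3 (-1.19 to 0.12) and BATF (-2.28 to 2.32). For the mean of both clones they were FOS (-0.44 to 0.23), FOSL1 (-0.6 to 0.59, and 0.0021 without the filter), JUND (-0.32 to 0.32) and ATF3 (-0.62 to 0.55), and between replicate numbers FOSL2 (-0.18 to 0.08) and JUN (-0.18 to 0.19). FOS, FOSL2, JUN, JUNB, JDP2 and BATF stayed below WT in C2 in every such fit. Why calls differ between settings was not tested.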
